A study of Mus musculus with 6 samples.

Results

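The elastic fibre and lysyl oxidase genes are a set of 10 genes that build and cross-link the elastic fibres of the lung: Eln, Fbn1, Fbn2, Mfap4, Fbln1, Fbln2, Fbln5, Efemp2, Lox and Loxl1. They were chosen by symbol, and all 10 were found among the 41388 genes of the count table. Lung RNA was sequenced from adult control C57BL/6J mice (WT1 to WT3) and from adult Zpbp2 KO mice (KO1 to KO3), with all lungs collected at ZT7, that is 7 h after lights on. The KO mice carry a germline deletion of the start of Zpbp2, including promoter and enhancer sequence, in a C57BL/6J background (strain B6.129S7-Zpbp2tmZuk/Mmjax). Their controls came from the same colony. The study was about regulation between the Zpbp2 region and the clock genes, and the comparison here asks how the elastic fibre genes differ between the genotypes.

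Elastic fibres let alveoli, airways and vessels recoil. Secreted tropoelastin, the product of Eln, is laid down on a scaffold of fibrillin microfibrils with the help of fibulins, and copper-dependent lysyl oxidases then join lysines of neighbouring molecules into stable cross-links. In the lung these genes are expressed mainly by fibroblasts, myofibroblasts, smooth muscle and mesothelial cells, most strongly while alveoli form.

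Each library held 59134950 to 71354388 counts, and 23070 to 23711 genes had at least 1 count. Zpbp2 had 20, 15 and 7 counts in WT1 to WT3 and 1, 0 and 0 in KO1 to KO3, low throughout and lower in KO, as the genotype labels have it. KO2 and KO3 were almost as alike as sampling of reads allows (a median variance over counting variance of 1.71 for genes with 20 to 200 counts in the pair, 1.78 at 200 to 2000 counts, 1.93 at 2000 to 20000 counts and 3.37 above). The WT pairs had 1.85 to 2.31, 3.74 to 5.35, 8.88 to 12.2 and 38.5 to 67.3 in these classes, so the pair stands out from 200 counts up and hardly below. Their counts were therefore summed, which left 3 WT and 2 KO samples. The labels and the study give KO2 and KO3 as separate mice, so each KO mean and SD counts 3 labelled mice as 2 samples. WT3 and KO1 stood apart. Squamous epithelium genes summed to 4327 and 8121 CPM (counts per 1e6 scaled counts) there and to at most 6.89 CPM in the other libraries, and skeletal muscle genes to 2575 and 4001 CPM against at most 99.9 CPM. Lung identity was clear, with Sftpc, the surfactant protein of alveolar type 2 cells, between 12108 and 19569 CPM. The summed alveolar type 2 markers were also higher in KO (27511 to 29162 CPM against 18974 to 19817 CPM), while adipocyte markers (96.6 to 273 CPM against 601 to 996 CPM) and cardiomyocyte markers (1192 to 1382 CPM against 2307 to 6592 CPM) were lower. Sftpc made up most of the alveolar type 2 sum. Of these 5 markers, 4 were higher in every KO library (20.1% of all genes), and Abca3 overlapped between the genotypes (log2 fold change 0.074, edgeR adjusted p 0.454). The part of these shifts in the results below was not tested. In whole lung, fewer cells of a type and less RNA per cell cannot be told apart.

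None of the 10 members passed the test between KO and WT. With the edgeR quasi-likelihood test, 0 of 10 had a Benjamini-Hochberg adjusted p of at most 0.05, against 2.28% of the 18660 genes tested (1.38% higher and 0.906% lower), and the adjusted p values of the members ran from 0.108 to 0.842. Before adjustment, a p of at most 0.05 was found for 2 members, Eln and Efemp2, both higher in KO, against 27.3% of all genes (13.9% higher and 13.4% lower). DESeq2 called 1 member, Efemp2 (22.9% of all genes in that fit), and the edgeR exact test called 0 (1.12%). No member was called either with the 6 libraries kept separate (18.9% of all genes), with a replicate block added to that fit (6.42%) or with at least 10 counts asked of every sample (5.30%). By the fold change estimate 5 members were higher and 5 lower in KO, with a median log2 fold change of 0.06 against 0.02 over all genes tested. Every KO library lay above every WT library in 2 members (20.1% of all genes) and below in 3 (20.7%), so 5 of 10 did not overlap against 40.8% of all genes. All 10 members passed the filter on low counts, and all have at least 73 counts in every library.

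**Figure D1:**
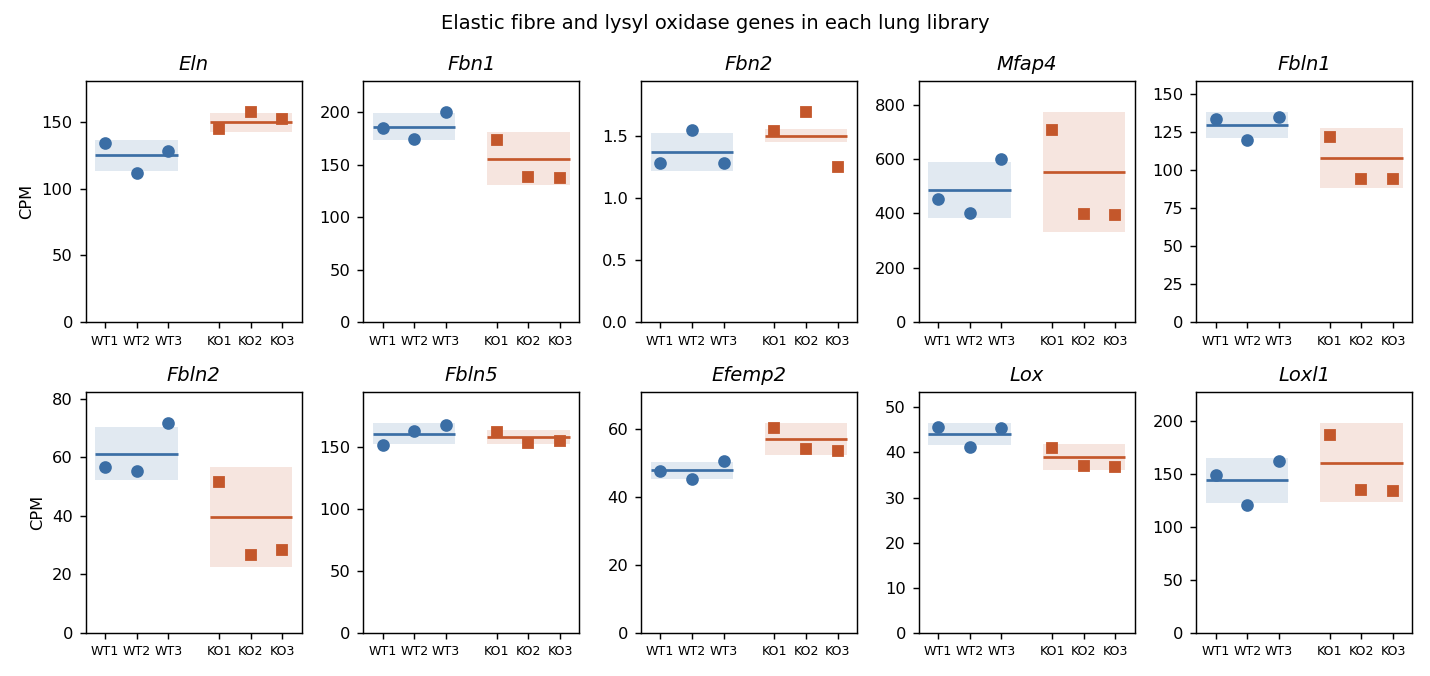
Level of each of the 10 genes in the 6 lung libraries, in CPM on a linear axis from 0. Circles are WT and squares KO libraries, lines are group means and shaded bands ± SD over samples (n = 3 for WT, n = 2 for KO with KO2 and KO3 averaged). KO points lie above the WT points for Eln and Efemp2 and below them for Fbn1, Fbln2 and Lox.

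Before the genotypes are compared, the levels place the genes relative to each other. Levels between genes are given per kilobase of annotated exon (CPM per kb, GENCODE M21). Mfap4, a microfibril-associated glycoprotein, was by far the highest in WT, at 252 ± 53.7 CPM per kb (SD, n = 3). Next came Loxl1 at 43.7 ± 6.35, Fbln1 at 29.7 ± 1.92 and Fbln5 at 23.3 ± 1.22 CPM per kb. Eln and Fbn1 were level, at 15.4 ± 1.42 and 15.3 ± 1.05 CPM per kb, and their WT ranges overlapped. Efemp2 followed at 12.6 ± 0.690 CPM per kb. Fbln2 and Lox, at 9.62 ± 1.42 and 9.22 ± 0.513 CPM per kb, also overlapped. Fbn2, the fibrillin of developing tissue, was lowest at 0.104 ± 0.0118 CPM per kb. The other neighbours in this order had WT ranges that did not overlap. In KO the order was the same except that Efemp2 stood above Fbn1 and Lox above Fbln2.

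Eln encodes tropoelastin, the elastic core. It lies on the minus strand of chromosome 5, from 134702593 to 134747323 of GRCm38. Its level was 134, 112 and 129 CPM in WT1 to WT3 and 144, 157 and 153 CPM in KO1 to KO3. Every KO library exceeded every WT library, by a narrow gap between WT1 and KO1. The WT mean was 125 ± 11.5 CPM (SD, n = 3) and the KO mean 149.7 ± 7.39 CPM (SD, n = 2). On the log2 scale the difference was 0.26 (SE 0.096), or 1.20-fold with a 95% interval of 1.01 to 1.42, and the edgeR adjusted p of 0.163 did not pass. Over 17 alternative settings the estimate stayed between 0.19 and 0.33 and passed in none, the lowest adjusted p being 0.0524 with the 6 libraries kept separate.

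The fibrillins form the microfibril scaffold. Fbn1, the fibrillin of adult tissue whose mutations cause Marfan syndrome, spans chromosome 2 from 125300594 to 125507993 on the minus strand. It was at 185, 174 and 199.7 CPM in WT and 173, 139 and 137 CPM in KO. The KO libraries were lower, but KO1 was only just below WT2. Its log2 fold change was -0.26 (SE 0.12, edgeR adjusted p 0.233), and the 95% interval of the fold ran from 0.682 to 1.03. An antisense gene, Gm9913, shares 20.1% of the Fbn1 exon length but had only 11 to 36 counts. Fbn2 (chromosome 18, 58008623 to 58210487, minus strand) had 73 to 109 counts per library, or 1.28, 1.55 and 1.28 CPM in WT and 1.54, 1.69 and 1.25 CPM in KO. The groups overlapped, with a log2 fold change of 0.14 (SE 0.17, edgeR adjusted p 0.646). Fbn1 exceeded Fbn2 by 112 to 155 times in WT and by 81.9 to 112 times in KO as a ratio of CPM, of genes of similar exon length (12128 and 13215 bases).

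The balance of elastin and its scaffold was compared as a ratio of CPM, a ratio chosen after its values were seen and given without a test. Eln to Fbn1 was 0.728, 0.644 and 0.644 in WT and 0.833, 1.13 and 1.11 in KO. It was higher in every KO library, and KO1 was again the KO library nearest to WT.

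Mfap4 binds fibrillin, elastin and lysyl oxidase. It lies on chromosome 11 from 61485431 to 61488900 on the plus strand, the same chromosome as Zpbp2. Its levels were 452, 401 and 600.1 CPM in WT and 707, 396 and 395 CPM in KO. WT3 and KO1 were the highest libraries and the other 4 lay close together, and the genotypes overlapped (log2 fold change 0.19, SE 0.29, edgeR adjusted p 0.726). Without KO1 the estimate turned to -0.29 (adjusted p 0.510).

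The fibulins link elastin, fibrillin and lysyl oxidase during assembly. For the 3 fibulin genes with a RefSeq start (GRCm38.p6) whose preceding 250 bases shared no base with an annotated exon, that window is shown, because these genes differ in their pattern over the libraries: Fbln1 was lowest in KO2 and KO3, Efemp2 was higher in every KO library and Fbln5 hardly varied. Promoter windows were matched for 5 of the 10 members. Capitals mark matches, on either strand, to 6 motifs: the E-box CACGTG bound by CLOCK and BMAL1, the GC box GGGCGG, the TATA box TATAAA, the TEAD site GGAATG, the AP-1 site TGANTCA and the CArG box. No match overlapped another, and each window is printed 5′ to 3′ on the strand of its gene.
Fbln1 (chr15:85205699-85205948, plus strand): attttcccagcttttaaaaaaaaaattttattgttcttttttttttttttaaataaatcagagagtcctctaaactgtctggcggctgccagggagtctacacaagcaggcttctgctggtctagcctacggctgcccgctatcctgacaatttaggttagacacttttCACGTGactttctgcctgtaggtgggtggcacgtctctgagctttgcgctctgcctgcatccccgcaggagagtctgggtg
Fbln5 (chr12:101819120-101819369, minus strand): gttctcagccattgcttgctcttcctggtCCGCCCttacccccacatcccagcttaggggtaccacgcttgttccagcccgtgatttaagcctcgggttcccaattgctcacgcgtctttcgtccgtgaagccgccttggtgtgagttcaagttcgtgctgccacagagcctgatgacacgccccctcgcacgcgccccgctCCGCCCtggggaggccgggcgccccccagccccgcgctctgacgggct
Efemp2 (chr19:5473696-5473945, plus strand): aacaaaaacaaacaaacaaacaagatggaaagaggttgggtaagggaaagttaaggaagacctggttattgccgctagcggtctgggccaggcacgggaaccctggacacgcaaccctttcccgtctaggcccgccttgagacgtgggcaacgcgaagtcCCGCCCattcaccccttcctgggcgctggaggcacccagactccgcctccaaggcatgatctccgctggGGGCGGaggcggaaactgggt

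The Fbln1 window shown held 1 E-box, a motif present in 6.02% of 32851 promoter windows of this length, and no GC box. The Fbln5 and Efemp2 windows shown each held 2 GC boxes, a motif present in 32.7% of windows. Windows of other annotated starts run into exons. A further Fbln1 window, which overlaps the one shown and holds the same E-box, also held 1 GC box. A further Fbln5 window held no GC box, and 2 further Efemp2 windows, which overlap each other, held 5 GC boxes each. None of the 3 windows shown held TATAAA (12.4% of windows), the TEAD site (12.6%), the AP-1 site (6.75%) or the CArG box (1.47%). These matches describe the letters of the windows and were not tied to the levels.

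Fbln1, a fibulin of elastic fibres and basement membranes, spans chromosome 15 from 85205949 to 85286535 on the plus strand. It was at 134, 120.1 and 135 CPM in WT and 122, 94.3 and 94.0 CPM in KO. KO2 and KO3 were lowest and KO1 lay within the WT range. This gave a log2 fold change of -0.26 (SE 0.13, edgeR adjusted p 0.258).

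Fbln2, which is found in the walls of vessels and in the stroma around airways, had the largest estimated difference of the members. It spans chromosome 6, 91212455 to 91272540, plus strand. Its level was 56.8, 55.4 and 71.6 CPM in WT and 51.6, 26.5 and 28.3 CPM in KO. All KO libraries were below all WT libraries, with KO1 near the WT values and KO2 and KO3 far below. The means were 61.3 ± 9.03 CPM (SD, n = 3) and 39.5 ± 17.1 CPM (SD, n = 2). The log2 fold change of -0.63 (SE 0.29) had an edgeR adjusted p of 0.235, and the 95% interval of the fold, 0.388 to 1.07, spans 1. Without WT3 and KO1, the libraries that stood apart, Fbln2 fell by 1.04 on the log2 scale, with KO2 and KO3 summed to a lone KO sample.

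Fbln5 binds elastin and integrins and is needed for elastic fibres to form. It lies on chromosome 12 from 101746565 to 101819055 on the minus strand. It was the steadiest member, at 152, 163 and 168 CPM in WT and 162, 153 and 154 CPM in KO, a range of 1.11-fold over all libraries. Its log2 fold change was -0.02 (SE 0.06, edgeR adjusted p 0.842), with a 95% interval of the fold of 0.881 to 1.10. Efemp2, or fibulin-4, brings lysyl oxidase to tropoelastin. It spans chromosome 19 from 5473954 to 5482517 on the plus strand. It was at 47.6, 45.3 and 50.5 CPM in WT and 60.4, 54.0 and 53.6 CPM in KO, so that every KO library was above every WT library. The log2 difference was 0.26 (SE 0.074), or 1.20-fold with a 95% interval of 1.05 to 1.37, and its edgeR adjusted p of 0.108 was the lowest of the members. Mus81 on the other strand shares 4.57% of the Efemp2 exon length and had 1448 to 1735 counts, so a small share of reads is uncertain.

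The estimates of Efemp2 and Fbln2 were of opposite sign. The ratio of Efemp2 to Fbln2, again chosen after its values were seen and not tested, was 0.839, 0.818 and 0.705 in WT and 1.17, 2.04 and 1.89 in KO.

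**Figure D2:**
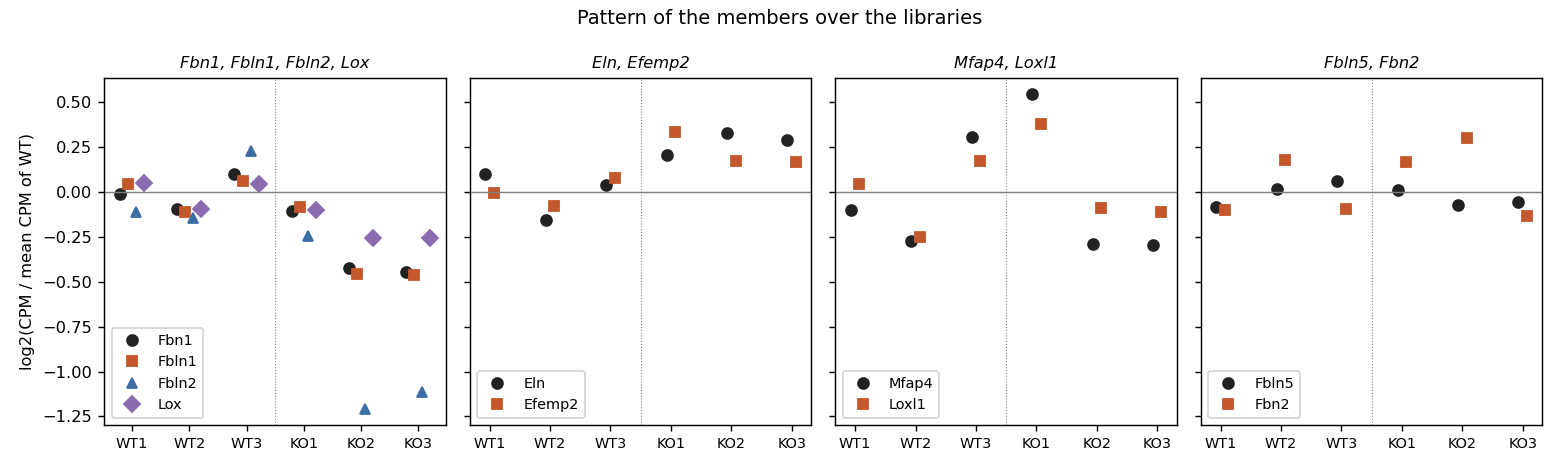
Level of each member in each library as log2 of its CPM over the mean CPM of WT, in panels grouped after the values were seen. The KO2 and KO3 points of Fbn1, Fbln1, Fbln2 and Lox are the lowest of each gene, Eln and Efemp2 are above 0 in every KO library, Mfap4 and Loxl1 are highest in WT3 and KO1, and Fbln5 and Fbn2 show no order by genotype.

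The lysyl oxidases make the cross-links. Lox, which acts on elastin and collagen, lies on chromosome 18 from 52516067 to 52529867 on the minus strand. It was at 45.5, 41.2 and 45.3 CPM in WT and 41.1, 36.9 and 36.9 CPM in KO. The groups just failed to overlap, since KO1 and WT2 were nearly equal. The estimate was a log2 fold change of -0.17 (SE 0.08, edgeR adjusted p 0.223). Loxl1, the paralogue needed for elastin renewal in adults, lies on chromosome 9 from 58287738 to 58313186 on the minus strand. Its levels were 149, 121 and 162 CPM in WT and 187, 135 and 134 CPM in KO. As with Mfap4, KO1 and WT3 were highest and the groups overlapped (log2 fold change 0.16, SE 0.19, edgeR adjusted p 0.626). Loxl1 exceeded Lox in CPM by 2.94 to 3.58 times in WT and by 3.62 to 4.56 times in KO, a ratio that was not tested. With an offset for length and GC content their log2 fold changes lay close together, at -0.036 for Loxl1 and -0.078 for Lox.

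The libraries that stood apart bear on these values. Without WT3 and KO1 the edgeR test called 3 members, Fbn1, Fbln1 and Fbln2, all lower in KO, against 11.9% of all genes in that fit. Their adjusted p values were 0.0341, 0.0287 and 0.000467. This fit sets WT1 and WT2 against the sum of KO2 and KO3, a lone KO sample that is assumed to vary as the WT samples do. When the squamous epithelium level entered the fit as a covariate and no library was left out, 3 members were called (12.7% of all genes): Fbn1 and Fbln2 lower and Efemp2 higher, at adjusted p values of 0.0402, 0.0234 and 0.0498. That level was high in WT3 and KO1 alone, and the fit spent a further term on the same few samples. Fold changes over all 18524 tested genes with a known length fell with exon length (Spearman rho -0.33, genes not being independent replicates). With an offset for length and GC content, the log2 fold change of Fbn1 was -0.08, that of Lox -0.08, that of Mfap4 0.034, that of Efemp2 0.18 and that of Fbn2 0.33, while Eln was at 0.30 and Fbln2 at -0.64. No member was called in that fit, in which 0.00% of all genes were.

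**Figure D3:**
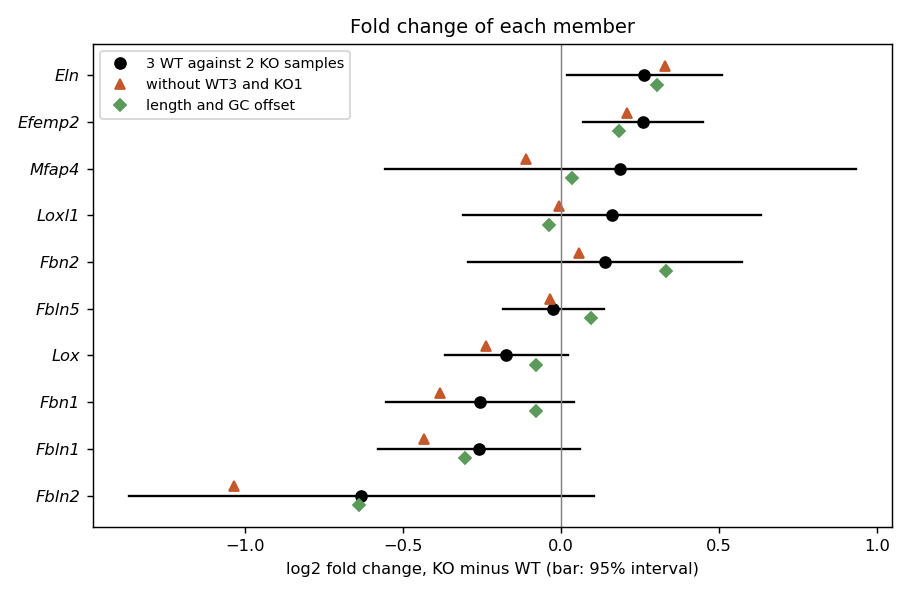
Log2 fold change of each member, KO minus WT, with bars for the 95% interval of the edgeR fit on 3 WT and 2 KO samples (circles). Triangles leave out WT3 and KO1 and diamonds use the length and GC offset. Bars of Eln and Efemp2 lie above 0 before adjustment, and Fbln2 moves from -0.63 to -1.04 without WT3 and KO1.

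The markers of cells that make elastic fibres did not move as a block. The 12 fibroblast markers summed to 5034 to 5664 CPM in WT and 4812 to 5827 CPM in KO, and none were called. Inmt was the largest part of this sum (1751 to 2128 CPM), so the sum says little of the weaker markers. By the estimate 5 of them were higher and 7 lower in KO. In 3 of the 12, Pdgfra, Col14a1 and Pi16, every KO library was below every WT library, against 20.7% of all genes. In none was every KO library above every WT library (20.1% of all genes). Smooth muscle markers summed to 1002 to 1614 CPM in WT and 1164 to 1902 CPM in KO. WT3 and KO1 were the 2 highest libraries for 4 of the 8 smooth muscle markers and for 6 of the 12 fibroblast markers. Mesothelial markers summed to 314 to 337 CPM in WT, to 289 CPM in KO1 and to 463 and 467 CPM in the other KO libraries. Pericyte markers summed to 535 to 657 CPM in WT and 485 to 586 CPM in KO. The 6 chondrocyte markers summed to 37.9 to 53.7 CPM in WT and 37.6 to 54.6 CPM in KO, nearly all of it from Chad (36.0 to 54.3 CPM), while the cartilage matrix genes Col2a1 and Acan were at 0.812 to 1.38 CPM in WT and 0 to 0.306 CPM in KO. Every KO library was below every WT library in Col2a1, Acan and Matn3, against 20.7% of all genes tested. Matn3 was left out by the low-count filter, and none of the 4 markers that passed it were called. The part of these cells in the members' levels was not tested.

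Other genes of elastic fibre assembly were taken from a list of 26, all of which passed the filter on low counts. Of these, 1 was called, lower in KO (0.906% of all genes were called lower), 13 were higher and 13 lower by the estimate, and the median log2 fold change was 0.00. The called gene was Dcn, or decorin, a small proteoglycan that binds collagen and microfibrils. Its level was 379, 411 and 414 CPM in WT and 234, 201 and 199.7 CPM in KO. The groups were far apart, and KO1 lay close to KO2 and KO3. Dcn fell by 0.88 on the log2 scale (SE 0.086, edgeR adjusted p 0.0446), with a WT mean of 401 ± 19.4 CPM (SD, n = 3) and a KO mean of 217 ± 23.3 CPM (SD, n = 2). It did not pass without WT1, WT2, WT3 or KO1 (adjusted p 0.0767 to 0.189) or with the length and GC offset (0.0938), while the estimate stayed between -1.001 and -0.714 over all 17 alternatives. In the fits without 1 of the WT libraries 0.00% of all genes were called, and without KO1 0.0883%.

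Of the other genes of this list with the highest CPM, Bgn, the related proteoglycan biglycan, was at 1054 ± 99.7 CPM in WT and 1120 ± 157 CPM in KO (edgeR adjusted p 0.681). Ltbp4, which helps to deposit fibulin-5 and is the main latent TGF-beta binding protein of elastic fibres, was at 963 ± 137 and 973 ± 193 CPM (0.960). Fn1, or fibronectin, was at 571 and 613 CPM in WT1 and WT2 but 1323 CPM in WT3, against 512 to 695 CPM in KO (0.534). Adamts10, a fibrillin-binding protease, was at 330 ± 4.84 and 315 ± 36.5 CPM (0.711). A further 3 genes were picked after their values were seen because they came closest to the threshold. Mfap2, a microfibril glycoprotein that binds fibrillin, was at 45.1, 39.4 and 43.8 CPM in WT and 61.3, 56.2 and 54.8 CPM in KO (log2 fold change 0.45, SE 0.08, edgeR adjusted p 0.0551). Vcan, the large proteoglycan versican, was at 13.2, 15.1 and 13.9 CPM and at 9.98, 10.3 and 9.58 CPM (-0.49, SE 0.09, edgeR adjusted p 0.0574). Hmcn1, the giant fibulin hemicentin, was at 274, 280 and 246 CPM and at 157, 193 and 195 CPM (-0.60, SE 0.12, edgeR adjusted p 0.0627). The genotypes did not overlap in these 3 genes, in 8 of the 26 listed genes and in 40.8% of all genes. With the length and GC offset their log2 fold changes shrank to 0.17, -0.22 and -0.29. They passed with DESeq2, with the 6 libraries kept separate and with the squamous epithelium term, at adjusted p values between 2.55e-05 and 0.0324, fits that called 22.9%, 18.9% and 12.7% of all genes. They did not pass with the edgeR exact test (adjusted p 0.274 to 0.674), without WT1, WT2, WT3 or KO1 (0.109 to 0.204) or with the offset (0.156 to 0.251).

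Elastin-degrading proteases and their inhibitors formed a list of 22 genes, of which 16 passed the filter. None were called with edgeR, 6 had an unadjusted p of at most 0.05 (3 higher, of which Serpina1c passed the filter only through its KO counts, and 3 lower, against 27.3% of all genes), DESeq2 called 4 (22.9% of all genes) and the edgeR exact test 1 (1.12%). Timp3, the matrix-bound metalloproteinase inhibitor, was the most abundant, at 1007 ± 31.9 CPM in WT and 842 ± 41.2 CPM in KO, where the genotypes did not overlap (log2 fold change -0.25, SE 0.07, edgeR adjusted p 0.0916, and -0.11 with the length and GC offset). Timp2 was at 815 ± 33.7 and 775 ± 57.7 CPM (0.593). The cathepsin inhibitor Cst3 was at 622 ± 9.18 and 679 ± 52.6 CPM (0.279), and the cathepsin Ctsl at 242 ± 0.778 and 249 ± 24.6 CPM (0.728). Slpi, an inhibitor of neutrophil elastase made by airway epithelium, was at 29.4 and 38.9 CPM in WT1 and WT2, 283 CPM in WT3, 410.1 CPM in KO1 and 66.8 and 68.3 CPM in KO2 and KO3, so that WT3 and KO1 again stood out (0.642). Without these 2 libraries its log2 fold change was 0.98, with KO2 and KO3 summed to a lone KO sample.

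**Figure D4:**
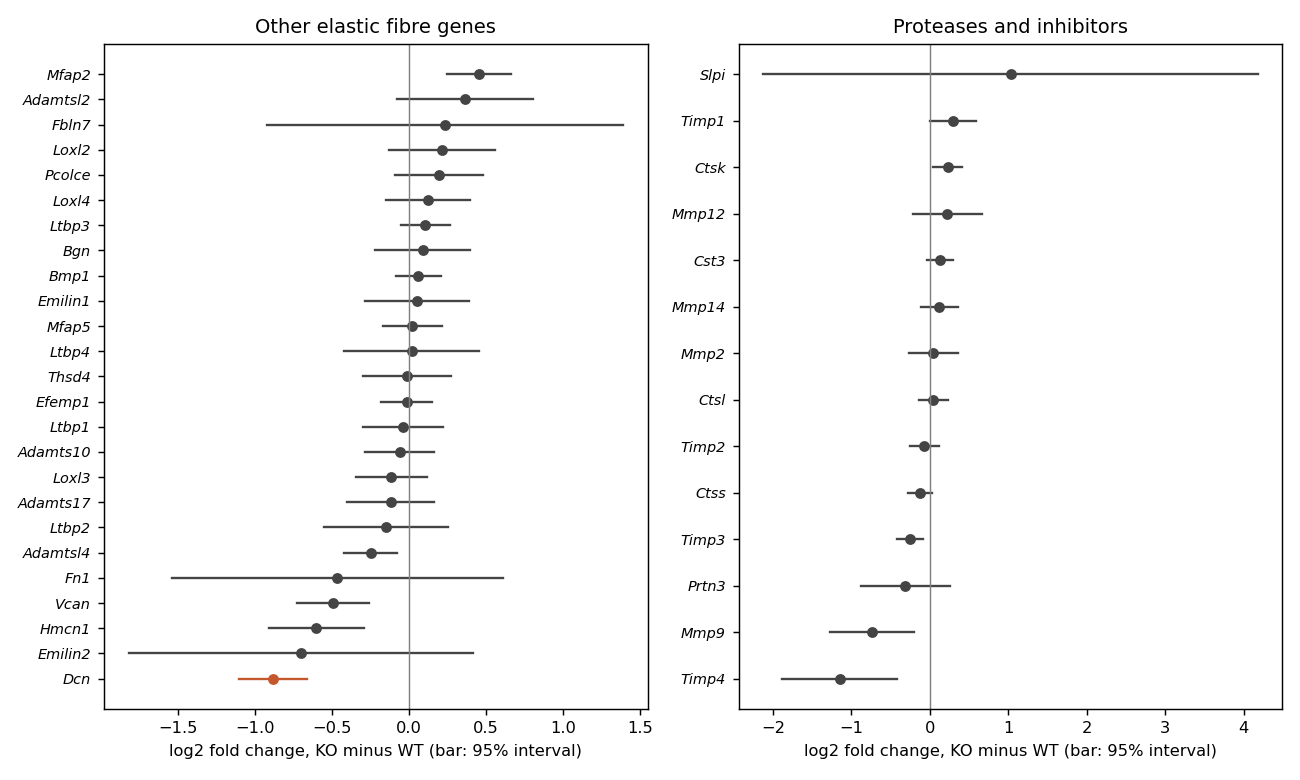
Log2 fold change, KO minus WT, with 95% intervals from the edgeR fit for 25 of 26 further elastic fibre genes (left) and 14 of 16 tested proteases and inhibitors (right), leaving out genes with a mean under 50 counts. Dcn, in colour, is the only gene drawn that passed an adjusted p of 0.05, and Slpi has the widest interval.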

How the data were processed

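The authors deposited raw counts of reads per gene for 6 lung libraries, with no normalization. Per the labels and the study's methods, reads were trimmed (Trimmomatic 0.36), aligned to GRCm38 (mm10) with STAR 2.5.3a, handled with Picard 2.9.0 and counted with HTSeq 0.6.0; the annotation release and the use of strand are not given in the sources used here. All 6 columns were used. Positions and exon lengths are from GENCODE M21 (97.5% of gene identifiers matched), promoter sequences from RefSeq.

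Tests were run on the counts with edgeR 4.0.16 under R 4.3.3: filterByExpr, TMM scaling, glmQLFit and glmQLFTest over all genes, two-sided, Benjamini-Hochberg adjusted, a call being an adjusted p of at most 0.05. KO2 and KO3 were summed, and their mean CPM is 1 replicate in each mean ± SD, so p-values rest on 3 and 2 samples. The standard error was derived from the F statistic. CPM values use TMM-scaled sizes of the 6 libraries. Alternatives included DESeq2 1.42.0, and the closing section gives their effect.

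Members and lists were chosen with earlier results of these data known. Named were all members, called genes, the 5 of each further list with the highest mean CPM (not scaled for length), Zpbp2, and the 5 genes most correlated with Eln. Mfap2, Vcan, Hmcn1, Timp4, Mmp9, Ctsk, Timp1, Serpina1c, Serpina1e and the single marker genes fall outside this rule and were chosen after their values were seen. The intervals cover the spread between samples only.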

Additional observations from a re-analysis of the deposited data

How the results depend on the processing

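There were 17 alternatives. For the members, 156 of 170 values kept their direction and their side of the threshold, 7 reversed and 7 became calls; for the other named genes it was 181 of 221, with 17 reversed, 18 new calls and 5 calls of Dcn lost. The number of members called was 0 except for 1 with DESeq2, 3 without WT3 and KO1 and 3 with the squamous epithelium term. All genes called came to 18.9% with 6 libraries, 22.9% with DESeq2, 12.7% with the squamous term, 11.9% without WT3 and KO1, 5.30% with at least 10 counts and 1.12% with the exact test. Beside these shares, the further elastic fibre genes called (of 26) were 5 with 6 libraries, with DESeq2 and with the squamous term, 4 without WT3 and KO1, 3 with at least 10 counts in every sample, 0 with the length and GC offset, and 0 to 1 when single libraries were left out (0 without WT1, WT2, WT3 or KO1). Proteases and inhibitors called (of 16 tested in the fit as reported) were 5 with 6 libraries, 4 with DESeq2, 1 with the exact test, 8 without WT3 and KO1 and 2 with the squamous term. The members' median log2 fold change was -0.07 without WT3 and KO1 and ran from -0.18 (without KO1) to 0.068 when single libraries were left out. The causes were not tested.

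Leaving out single libraries gave log2 fold changes of -0.29 to 0.37 for Mfap4, -0.067 to 0.0053 for Fbln5, -0.10 to 0.25 for Loxl1, -0.066 to 0.16 for Bgn, -0.21 to 0.11 for Ltbp4, -0.70 to 0.031 for Fn1, -0.078 to 0.047 for Adamts10, -0.064 to 0.049 for Ctsl and -0.79 to 2.81 for Slpi. Without KO1, members that kept their sign moved to -1.16 (Fbln2), -0.44 (Fbn1), -0.46 (Fbln1) and 0.17 (Efemp2), and single libraries moved Fbn2 between 0.025 (without KO2) and 0.24 (without KO3). Without WT3 and KO1 the sign turned for Mfap4 (-0.11), Loxl1 (-0.0075), Ltbp4 (-0.11), Adamts10 (0.047) and Ctsl (-0.063). With the length and GC offset it turned for Fbln5 (0.094), Loxl1 (-0.036), Ltbp4 (-0.10) and Cst3 (-0.052), with library size alone for Ltbp4 (-0.035) and Ctsl (-0.0093), and for Ltbp4 with 6 libraries (-0.054) and the squamous term (-0.052). None of these genes was called in the fit as reported.

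Replicate numbers are shared between WT and KO, but the labels tie no WT mouse to a KO mouse. Deviations of same-numbered libraries correlated at -0.69, 0.80 and -0.85. Those of WT3 and KO1, the libraries that stood apart, correlated at 0.87. The signs follow these libraries, so the correlations cannot decide whether the numbers pair mice. With the replicate block on 6 libraries, 0 members, 3 further elastic fibre genes and 3 proteases or inhibitors were called (6.42% of all genes), and Ltbp4 was at -0.056. At 73 to 109 counts per library, Fbn2 had the widest counting error of the members.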

Other observations

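The Serpina1 genes encode alpha-1 antitrypsin, the plasma inhibitor of neutrophil elastase. Chosen after its values were seen, Serpina1c had 0, 1 and 0 counts in WT1 to WT3 and 12, 79 and 55 in KO1 to KO3. Serpina1e, which was left out by the low-count filter, had 0 in each WT library and 9, 197 and 179 in KO. KO2 and KO3, which count as 1 sample, held most of these counts. The Serpina1 copies are nearly identical, so the division of reads between them is uncertain.

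The genes whose log2 CPM was most like that of Eln over the 6 libraries, among 10992 others with a mean of at least 10 CPM, were Leprel4, Alox12, Ccdc84, Rab3a and Cnot11, with Pearson correlations of 0.99 each. These points share the genotype contrast and include KO2 and KO3, which are close to 1 sample, so the values are a description. None of the other members was among these 5 genes.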
